A study of Homo sapiens with 12 samples.

Results

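The neuropeptide genes CRH, CRHBP, SST, NPY, TAC1, CCK, PENK, NTS, GAL and ADCYAP1 were followed across 12 RNA-seq libraries of human neural cultures. They were chosen by name as genes of stress and other peptide signals, and are 10 of 63925 gene IDs counted. Of the 10 members, 9 passed the filter on low counts and were tested among 17819 genes, and CCK did not pass. The cultures came from 2 established human embryonic stem cell lines, H9 and H1. Each group held 3 sister cultures: H9 with vehicle, H9 with dexamethasone, H1 with vehicle, and H1 with dexamethasone. Vehicle was DMSO, and the other cultures received 1 µM dexamethasone, a synthetic glucocorticoid, for 6 h. All 12 cultures had been made by dual SMAD inhibition over 10 weeks and kept in a neurobasal medium with B-27, ascorbic acid, cyclic AMP, BDNF and GDNF. Each line is 1 cell line, and no label names a differentiation, so an effect of the line cannot be told apart from one of its differentiation. The flow cell of each library is not named either, so line and sequencing run cannot be told apart.

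Neuropeptides are cut from larger precursor proteins, stored in dense core vesicles and released to act on G protein-coupled receptors. CRH, corticotropin-releasing hormone, starts the hormonal stress response from the hypothalamus, where glucocorticoids are known to lower its transcription, and CRHBP is a secreted protein that binds CRH. Several precursor genes, SST among them, are textbook targets of cyclic AMP signalling through the cyclic AMP response element.

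One library, H9 vehicle culture 3, was unlike the other 2 of its group. Its total of 14751168 counts was the lowest, against 20871163 to 27505804 in the other 11 libraries, and 0.607% of its counts were mitochondrially encoded against 4.80% to 5.64% in the other H9 libraries. Its distance from the mean of its group was 0.569 on the log2 scale, as a root mean square over genes, against 0.179 to 0.341 for the other libraries. Results that rest on it are given with and without it. Neuron markers summed to 5259 to 6207 CPM in H9 and 3543 to 4106 in H1. The 5 pluripotency markers summed to 0.933 to 5.39 CPM over all libraries. Levels here are CPM, which are counts relative to the library total scaled by TMM. In bulk RNA, fewer cells of a type and less RNA per cell cannot be told apart, and p-values measure only the spread between sister cultures.

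The sequence before the transcription start was taken from RefSeq on GRCh38.p14, which held 7 of the 10 members, with 2 starts each for CCK and ADCYAP1. CRH, PENK and GAL were missing from the set used and were not searched, so nothing below covers them. The cyclic AMP response element, TGACGTCA, was searched on both strands in the 250 bases before each start, together with the shorter core TGACG, which it contains. SST was the only one of these 7 genes with the whole element, which 1.65% of 35116 windows held. The core was found for SST, CRHBP, NTS, TAC1 and ADCYAP1, and in 21.2% of all windows. For CRHBP and ADCYAP1, all 250 bases of the window that held it lay in GENCODE 29 exons of the gene. Those matches are thus before the RefSeq start but within annotated exons. The full glucocorticoid response element was found before none of the 7 and in 0.00285% of windows. Its spaced centre, ACANNNTGT, was also before none of them and in 4.61% of windows. A match is only a match of letters, and the absence of one says nothing about the receptor. Below are the windows of the member with the highest level, of one higher in H9 and of one higher in H1, 5′ to 3′ on the gene's strand, without bases in annotated exons. Capitals mark the whole element in SST and the core, as its reverse complement CGTCA, in NTS; NPY has neither.
SST, chr3:187670400-187670644, minus strand: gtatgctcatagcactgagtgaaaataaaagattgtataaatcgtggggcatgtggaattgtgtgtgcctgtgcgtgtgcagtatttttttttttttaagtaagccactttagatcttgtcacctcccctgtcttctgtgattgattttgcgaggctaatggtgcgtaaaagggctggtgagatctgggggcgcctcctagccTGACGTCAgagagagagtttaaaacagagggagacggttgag
NTS, chr12:85874045-85874294, plus strand: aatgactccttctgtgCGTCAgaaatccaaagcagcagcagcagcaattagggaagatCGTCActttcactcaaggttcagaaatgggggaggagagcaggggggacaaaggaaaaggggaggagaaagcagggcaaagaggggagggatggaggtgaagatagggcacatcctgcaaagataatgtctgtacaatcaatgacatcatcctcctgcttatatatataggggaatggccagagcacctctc
NPY, chr7:24283940-24284162, plus strand: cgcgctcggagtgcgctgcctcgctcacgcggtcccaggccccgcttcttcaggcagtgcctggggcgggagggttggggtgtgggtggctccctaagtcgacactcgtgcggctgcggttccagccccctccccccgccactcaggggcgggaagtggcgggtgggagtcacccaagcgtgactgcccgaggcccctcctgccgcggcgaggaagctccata
The SST element began 47 bases before the start, and the NTS cores began 234 and 192 bases before it.

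Per kb of exon, SST had the highest level of the 10 genes in all 4 groups, and its lowest library lay above every library of the next gene. It reached 34.6 ± 1.36 CPM per kb (SD, n = 3) in H9 vehicle and 42.0 ± 4.34 in H1 vehicle. The next gene differed between the lines. In H9 vehicle it was NTS, at 5.14 ± 3.05 CPM per kb, whose libraries overlapped those of CRHBP at 3.71 ± 1.16. In H1 vehicle it was CRH, at 5.99 ± 0.431 CPM per kb, apart from TAC1 at 2.94 ± 0.485. ADCYAP1, CRH, TAC1 and GAL followed CRHBP in H9 vehicle, each overlapping its neighbour in that order. In H1 vehicle, TAC1, NTS and ADCYAP1 overlapped as neighbours, as did CRHBP, GAL and NPY. The lowest places fell to PENK, NPY and CCK in H9 vehicle and to PENK and CCK in H1 vehicle. With dexamethasone, CRH stayed next to SST in H1 at 3.79 ± 0.720 CPM per kb, but its libraries then overlapped those of TAC1.

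**Figure D1:**
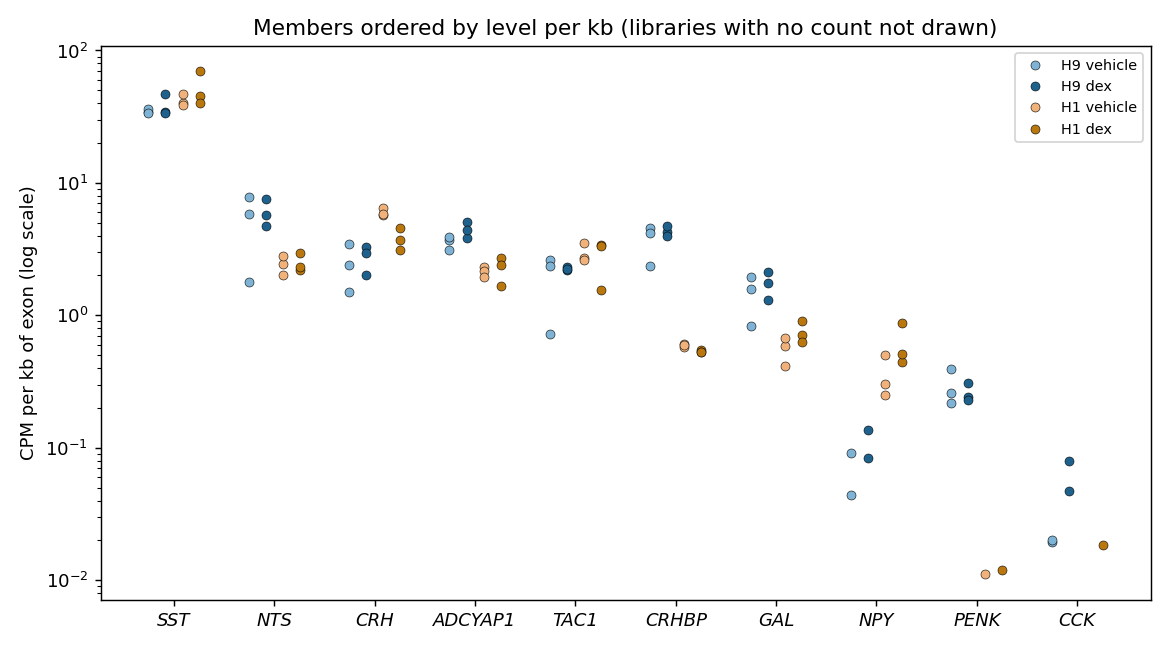
Level of each member in each library, in CPM per kb of exon on a log scale, with genes ordered by their mean over the groups; colours give the group and libraries with no count are not drawn. SST lies above all others in every library, and CRHBP and PENK lie lower in H1 than in H9.

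Dexamethasone changed none of the 9 tested members past an adjusted p of 0.05. This held for the mean of both lines, for H9, for H1 and for the difference between the lines, with all libraries and without H9 vehicle culture 3 (edgeR quasi-likelihood test, Benjamini-Hochberg). Few genes were called anywhere. Of all genes tested, 0.101% were called over both lines, 0.0673% in H9, 0.0505% in H1 and 0% for the difference. Without H9 vehicle culture 3 these shares were 0.774%, 0.293%, 0.326% and 0%. No member was called by DESeq2 or limma-voom either, although DESeq2 left the adjusted p-values of NPY and PENK undefined in 3 of these 4 comparisons. At an unadjusted p under 0.05, 0 members passed over both lines and in H9, and 1 passed in H1 and 1 for the difference, CRH in both cases. Of all tested genes, 7.49%, 16.3%, 2.95% and 7.46% passed that threshold in these 4 comparisons. Without H9 vehicle culture 3, CRH also passed over both lines (edgeR unadjusted p = 0.0177), where 10.8% of genes did.

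CRH in H1 had the lowest p-value of the members in the dexamethasone comparisons. The gene lies at chr8:66176382-66178725 on the minus strand (GRCh38, GENCODE 29). In the H1 vehicle cultures CRH had 10.0, 8.79 and 8.93 CPM, and in the H1 dexamethasone cultures 4.83, 5.69 and 7.03. The groups did not overlap. The log2 change of CRH was -0.66 ± 0.25 (SE), with an unadjusted p of 0.0231 and an adjusted p of 1 (edgeR). Without H9 vehicle culture 3 the CRH change in H1 was the same size, -0.66 ± 0.17, and the adjusted p was 0.136. Over all alternatives the adjusted p of CRH in H1 ranged from 0.0554 to 1. Groups free of overlap in H1 were common, at 14.1% of all tested genes, and 2 of the 9 members, CRH and CRHBP, were among them. None of the 9 was free of overlap in H9, where 21.4% of tested genes were.

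In H9, CRH had 3.73, 5.31 and 2.31 CPM with vehicle and 3.11, 5.10 and 4.57 with dexamethasone. These groups overlapped throughout, and the log2 change of CRH was 0.15 ± 0.27 (edgeR adjusted p = 0.738), or -0.07 ± 0.21 without culture 3 of the vehicle group. The difference between the lines, H9 minus H1, was 0.81 ± 0.37 with an adjusted p of 0.548, and 0.59 ± 0.28 with an adjusted p of 0.481 without that culture. A line-specific change of CRH was therefore not called. Beside the lower CRH in H1, the summed GABA neuron markers lay at 518 to 643 CPM with vehicle and 700 to 918 with dexamethasone in H1, with no overlap, and none of these markers was called. Markers of neural crest, peripheral neurons and Schwann cells were also apart in H1, at 118 to 124 CPM with vehicle and 134 to 135 with dexamethasone, with none called. The summed hypothalamic markers overlapped, at 174 to 197 CPM with vehicle and 158 to 209 with dexamethasone. The part of these cells in the CRH values was not tested.

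CRHBP changed little with dexamethasone and differed widely between the lines. It lies at chr5:76952713-76981158 on the plus strand. H9 cultures had 12.7, 11.8 and 6.67 CPM of CRHBP with vehicle and 11.2 to 13.2 with dexamethasone. H1 cultures had 1.70, 1.60 and 1.68 CPM with vehicle and 1.55, 1.49 and 1.48 with dexamethasone. Every H9 library lay above every H1 library, and H9 vehicle culture 3 was the lowest of H9. With dexamethasone the log2 change of CRHBP was 0.21 ± 0.19 in H9 and -0.14 ± 0.24 in H1, with adjusted p-values of 0.501 and 1 (edgeR).

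**Figure D2:**
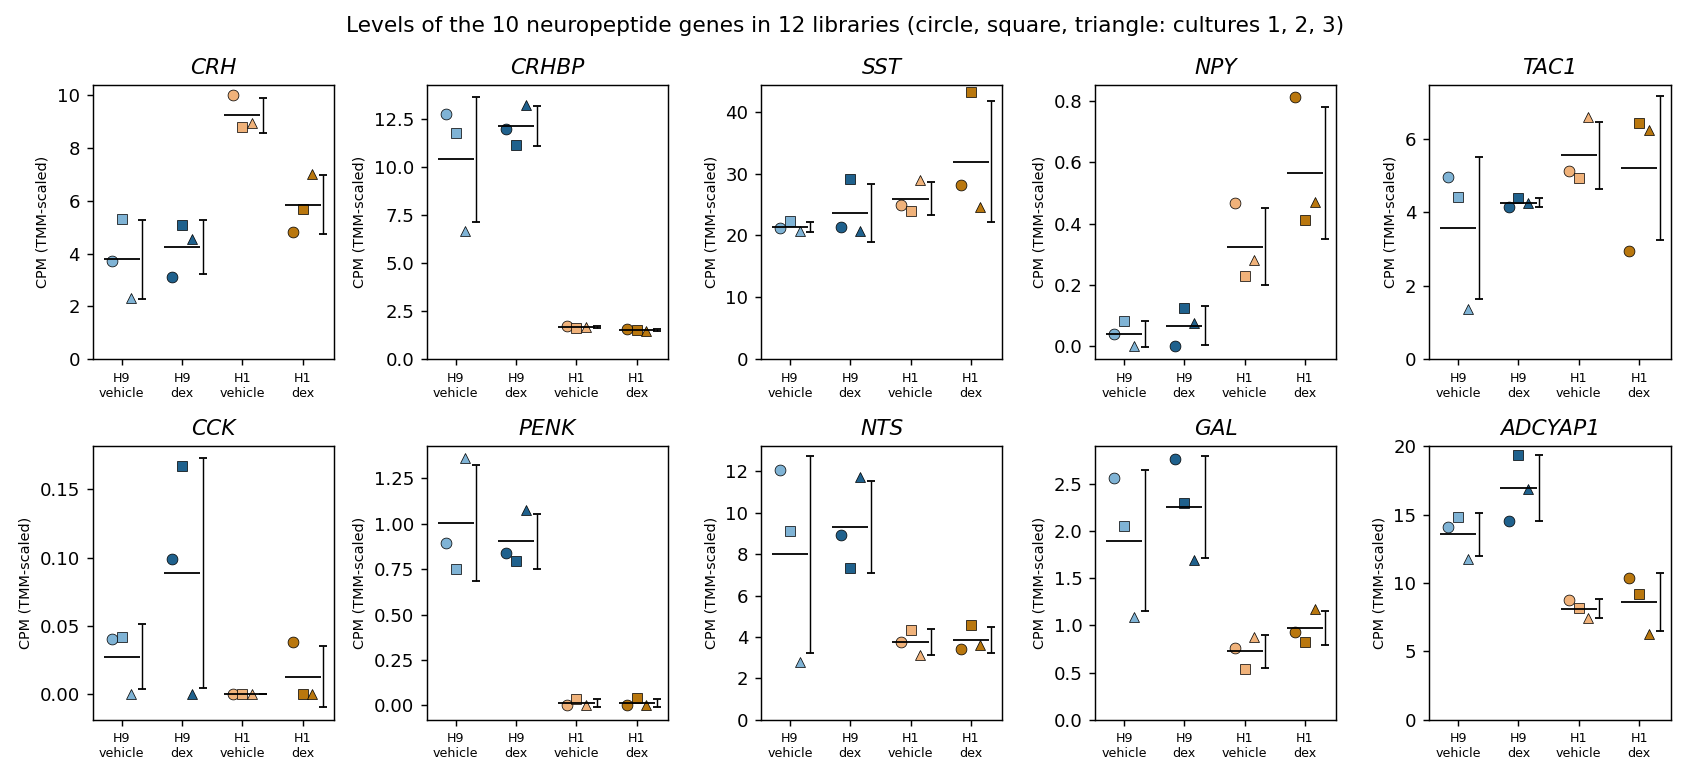
TMM-scaled CPM of each member in the 12 libraries by group; points are cultures 1, 2 and 3 (circle, square, triangle), lines the group means and bars ± 1 SD (n = 3). CRH is highest in the H1 vehicle cultures, CRHBP and PENK are high only in H9 libraries, and H9 vehicle culture 3 is low for TAC1, NTS and GAL.

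Of the 9 tested members, 7 had libraries of both lines past the cut of the count filter, 0.407 CPM, while NPY did so in H1 alone and PENK in H9 alone. NPY and PENK had to differ between the lines to be tested, so they are described by their counts and not tallied. Of the other 7, 4 were higher in H9 vehicle cultures and 1 was lower, in a background where 46.9% of all tested genes were called (58.6% without H9 vehicle culture 3). Calls between the lines were thus common among all genes, and the members' share was not tested against that background. The higher members were CRHBP, NTS, GAL and ADCYAP1, and the lower member was CRH. The groups were free of overlap for CRHBP, GAL, ADCYAP1, CRH and SST, against 54.7% of all tested genes. In the dexamethasone cultures the same 4 members were higher in H9 and 0 were lower, where 43.6% of genes were called (64.6% without H9 vehicle culture 3) and 68.2% were free of overlap. CRH and SST were called lower there without that culture, with adjusted p-values of 0.0463 and 0.0365.

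CRH was lower in H9 than in H1 with vehicle, by a log2 difference of -1.26 ± 0.26 (edgeR adjusted p = 0.0021), or -1.03 ± 0.20 without H9 vehicle culture 3. With dexamethasone the CRH difference was -0.45 ± 0.26 and was not called (adjusted p = 0.183). CRHBP went the other way, with log2 differences of 2.65 ± 0.22 with vehicle and 3.01 ± 0.22 with dexamethasone (adjusted p = 2.66e-06 and 1.07e-06). The ratio of CRH to CRHBP, both per kb and within 1 library, is free of the scaling of libraries. It was 0.471 to 0.830 in the 6 H9 libraries. It was 10.7, 9.95 and 9.65 in the H1 vehicle libraries and 5.68, 6.96 and 8.61 in the H1 dexamethasone libraries. CRH thus had fewer reads per kb than its binding protein in every H9 library and more in every H1 library. Beside this, the summed hypothalamic markers were 35.0 to 64.4 CPM in H9 and 158 to 209 CPM in H1. OTP and SIM1, transcription factors of the hypothalamic nuclei that hold CRH neurons, were lower in H9 vehicle by 2.41 and 2.16 on the log2 scale. Of the 8 hypothalamic markers, 4 were called lower and 0 higher there, and 2 had a positive difference that was not called. Without H9 vehicle culture 3, 5 were called lower and 1 higher. Mesenchymal markers were also apart, with sums of 210 to 381 CPM in H9 and 1445 to 3271 in H1. Of these 8 markers, 4 were called lower in H9 vehicle and 1 higher. The part of hypothalamic and mesenchymal cells in the CRH difference was not tested.

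SST, the somatostatin precursor of many inhibitory neurons, was not called in any comparison with all 12 libraries. It lies at chr3:187668906-187670399 on the minus strand. In H9 vehicle SST had 21.2, 22.3 and 20.7 CPM and in H1 vehicle 24.9, 23.9 and 29.0 CPM. These groups did not overlap, but the difference of -0.28 ± 0.20 was not called (edgeR adjusted p = 0.264). With dexamethasone SST had 21.3, 29.1 and 20.7 CPM in H9 and 28.1, 43.2 and 24.6 CPM in H1. The widest spread of SST was therefore in the dexamethasone cultures, where culture 2 was highest in both lines. The log2 change with dexamethasone was 0.15 ± 0.20 in H9 and 0.30 ± 0.20 in H1, and neither passed (adjusted p = 0.648 and 1).

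NPY, neuropeptide Y, which is made by inhibitory interneurons and arcuate neurons, passed the filter through its H1 libraries alone. It lies at chr7:24284163-24291865 on the plus strand. H9 libraries held 1, 2 and 0 NPY counts with vehicle and 0, 3 and 2 with dexamethasone. H1 libraries held 11, 6 and 7 NPY counts with vehicle and 21, 10 and 12 with dexamethasone. From the pooled counts, NPY was 6.78 times higher in H1 than in H9 with vehicle, with an exact 95% interval of 2.06 to 35.2 that covers counting error only. With dexamethasone the ratio was 7.98, with an interval of 3.17 to 25.8. In H1 the NPY count was highest in culture 1 of each treatment, and the log2 change with dexamethasone of 0.80 ± 0.46 was not called (adjusted p = 1).

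PENK encodes proenkephalin, the source of enkephalin opioid peptides, and passed the filter through its H9 libraries alone. It lies at chr8:56436674-56446734 on the minus strand. H9 libraries held 22, 18 and 20 PENK counts with vehicle and 17, 19 and 28 with dexamethasone, or 0.752 to 1.36 CPM. H1 libraries held 1 PENK count in 3 libraries with vehicle and 1 in 3 libraries with dexamethasone. The pooled ratio of H9 to H1 was 70.8 with vehicle, with a 95% counting interval of 12.2 to 2844, and 69.0 with dexamethasone, with an interval of 11.9 to 2766. PENK was the one member whose highest H9 vehicle level was in culture 3. Of its exon bases, 20.1% overlap AC012349.1 on the other strand, and the strand setting of the counting is not given.

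GAL encodes galanin, an inhibitory peptide of hypothalamic and brainstem neurons, and lies at chr11:68683779-68691175. GAL had 2.55, 2.05 and 1.09 CPM in H9 vehicle and 0.763, 0.535 and 0.881 CPM in H1 vehicle. With dexamethasone it had 2.76, 2.30 and 1.69 CPM in H9 and 0.927, 0.825 and 1.17 CPM in H1. All H9 libraries lay above all H1 libraries of the same treatment. The log2 differences of GAL were 1.42 ± 0.33 and 1.19 ± 0.31 (edgeR adjusted p = 0.00415 and 0.00861), and without H9 vehicle culture 3 the first was 1.66 ± 0.28.

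ADCYAP1 encodes PACAP, a peptide that raises cyclic AMP through its receptor ADCYAP1R1, and lies at chr18:904943-912172. It had 14.1, 14.8 and 11.8 CPM in H9 vehicle and 8.78, 8.18 and 7.41 CPM in H1 vehicle. With dexamethasone ADCYAP1 had 14.6, 19.4 and 16.9 CPM in H9 and 10.4, 9.16 and 6.29 CPM in H1. The lines did not overlap, with log2 differences of 0.74 ± 0.18 and 0.98 ± 0.18 (edgeR adjusted p = 0.00582 and 0.00101). Its change with dexamethasone in H9 was 0.32 ± 0.18 (adjusted p = 0.336). Genes on the other strand overlap 15.7% of its exon bases.

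NTS encodes neurotensin, a peptide that modulates dopamine signalling and body temperature, and lies at chr12:85874295-85882992. NTS had 12.1, 9.11 and 2.79 CPM in H9 vehicle, where culture 3 was below every H1 library. H1 vehicle cultures had 3.77, 4.36 and 3.12 CPM. With dexamethasone NTS had 8.93, 7.31 and 11.7 CPM in H9 and 3.40, 4.58 and 3.63 CPM in H1, with no overlap. The log2 difference of NTS with vehicle was 1.12 ± 0.39 (edgeR adjusted p = 0.0329), and 1.50 ± 0.20 without H9 vehicle culture 3 (adjusted p = 1.17e-05). With dexamethasone it was 1.27 ± 0.38 (adjusted p = 0.0187). The vehicle call of NTS was lost with limma-voom and with leaving out any of 5 vehicle cultures, and the dexamethasone call was lost in 3 of 12 fits with a single library removed.

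TAC1, the precursor of substance P and neurokinin A, was not called in any comparison. It lies at chr7:97731908-97740472. TAC1 had 4.95, 4.43 and 1.36 CPM in H9 vehicle and 5.13, 4.93 and 6.61 CPM in H1 vehicle. With dexamethasone TAC1 had 4.15, 4.39 and 4.26 CPM in H9 and 2.94, 6.44 and 6.25 CPM in H1. The low values were those of H9 vehicle culture 3 and H1 dexamethasone culture 1. The log2 difference between the lines with vehicle was -0.59 ± 0.37 (edgeR adjusted p = 0.211), and -0.24 ± 0.25 without H9 vehicle culture 3.

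CCK, cholecystokinin, a peptide of cortical interneurons and gut, was under the filter and was not tested. It lies at chr3:42257825-42266207. H9 libraries held 1, 1 and 0 CCK counts with vehicle and 2, 4 and 0 with dexamethasone. H1 libraries held 0 CCK counts in 3 vehicle libraries, which allows up to 0.0401 CPM over the group (3 counts of the pooled total), and 1 count in 3 dexamethasone libraries. No difference was detectable at this depth. AC018358.1 on the other strand overlaps 33.2% of the CCK exon bases, and the strand setting of the counting is not given.

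**Figure D3:**
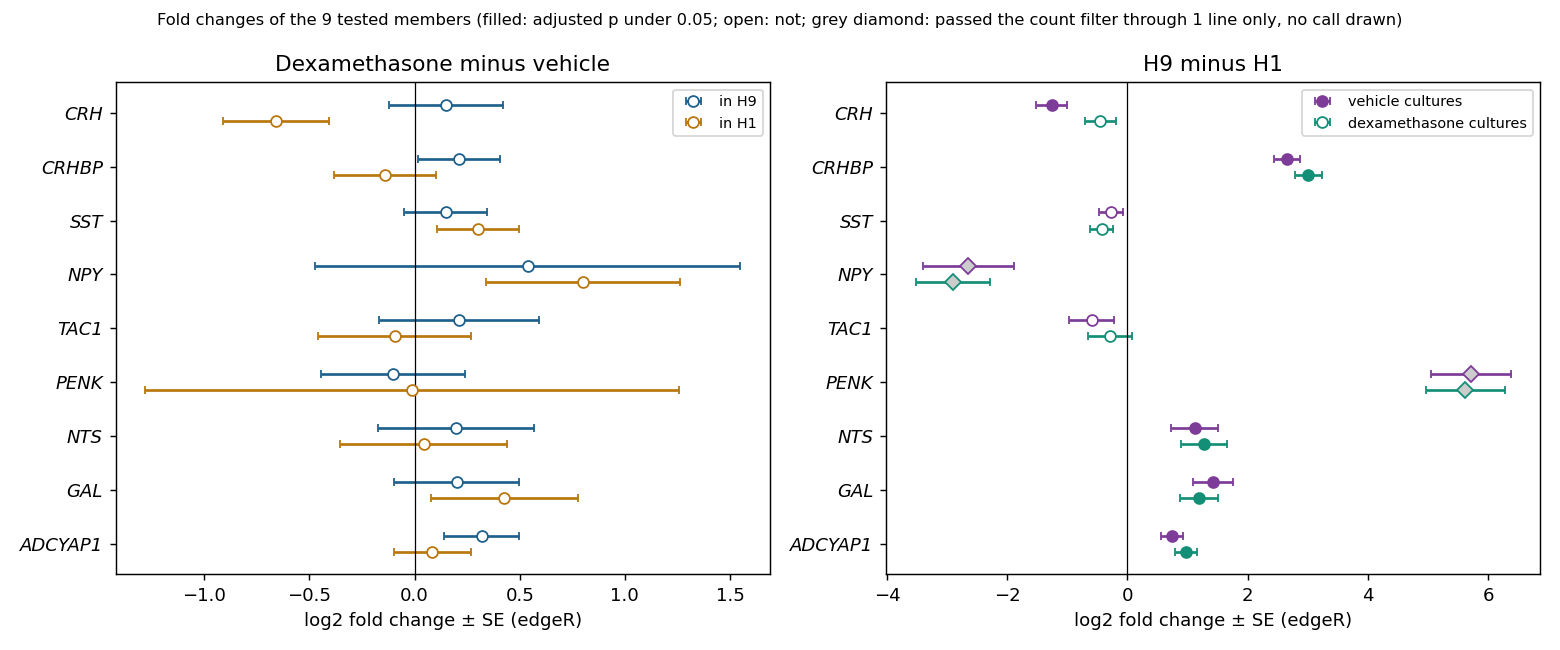
Log2 fold changes ± SE (edgeR) of the 9 tested members, on the left dexamethasone minus vehicle in each line and on the right H9 minus H1 in each treatment; filled points have an adjusted p under 0.05 and open points do not. Grey diamonds mark NPY and PENK, which passed the filter through 1 line only. All points on the left are open, and on the right CRH lies on the side of H1 and CRHBP on the side of H9.

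H9 vehicle culture 3 touched the members unevenly. Relative to the mean of its sister cultures its level was 0.26 for NTS, 0.29 for TAC1, 0.47 for GAL, 0.51 for CRH and 0.54 for CRHBP. It was 0.81 for ADCYAP1, 0.95 for SST and 1.65 for PENK. Its share of the spread showed in the coefficient of variation of H9 vehicle, which was 59.4% for NTS and 54.2% for TAC1 but 3.92% for SST. In H1 vehicle the coefficients for those 3 genes were 16.4%, 16.5% and 10.3%.

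Among the genes around the members in the pathway, edgeR called 0 of 71 tested genes under dexamethasone, and 0 of 73 tested without H9 vehicle culture 3. At an unadjusted p under 0.05 there were 9 over both lines, 11 in H9, 3 in H1 and 7 for the difference, to be read against the shares of all genes given above. Without that culture there were 10, 9, 12 and 10, where 10.8%, 11.1%, 10.0% and 10.4% of all genes passed. Limma-voom also called 0. DESeq2 called 1, in H9, SYT10, a vesicle calcium sensor named after its values were seen, with a log2 change of 1.02 ± 0.27 (adjusted p = 0.0264), against 0.288 with edgeR. The lists were 14 genes of the CRH axis (5 tested), 26 receptors of the members (16 tested), 38 other peptide precursors (19 tested), 12 processing enzymes (10 tested), 13 granins and release factors (12 tested) and 10 degrading enzymes (9 tested). The differences between the lines below are for the vehicle cultures, in which the median log2 difference over all tested genes was 0.03. Of all tested genes, 25.7% were called higher in H9 and 21.2% lower, and 30.1% and 28.6% without H9 vehicle culture 3. The lists' counts cover the genes that passed the filter and were not tested against these shares. A list gene that passed the filter cut of 0.407 CPM only through 1 line had to differ between the lines to be tested. Such genes stay in the counts and medians.

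Of the 5 tested genes of the CRH axis, 4 were higher in H9 and 0 lower, with a median of 1.51. AVPR1A, a vasopressin receptor, had 2.22 ± 0.546 CPM in H9 and 0.270 ± 0.106 in H1, a log2 difference of 3.01. Its H1 mean was under the filter cut, and it passed through its H9 libraries. CRHR2, the receptor that prefers urocortins, differed by 1.99, or by 1.55 without H9 vehicle culture 3, and OXTR, the oxytocin receptor, by 1.51. CRHR1, the main receptor of CRH, was listed at 0 in all 12 libraries. Of its exon bases, 69.7% overlap other annotated genes, and SOX2, a gene that neural progenitors use, was also listed at 0, so a 0 here is not read as absence.

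Receptors of the member peptides moved both ways, with 7 of 16 higher in H9, 3 lower and a median of 0.65. Without H9 vehicle culture 3 there were 7 higher and 5 lower, with a median of 0.48. The largest rises were in CCKBR, a cholecystokinin receptor, in ADCYAP1R1, the PACAP receptor, and in OPRM1, the mu opioid receptor, with log2 differences of 1.94, 1.90 and 1.71. VIPR1, NPY1R and SORT1, a sorting receptor that also binds neurotensin, were lower by 1.43, 0.96 and 0.55 on that scale, where NPY1R was lower by 0.62 without that culture. ADCYAP1R1 reached 131 CPM in H9 and 35.1 in H1. Peptides and receptors did not move together throughout. VIPR1 also binds PACAP, and was lower in H9 while ADCYAP1 was higher. SORT1 was lower while NTS was higher.

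Other peptide precursors were higher in 8 and lower in 2 of 19 tested, with a median of 0.60. IAPP, the islet amyloid precursor, TRH, thyrotropin-releasing hormone, and NPPC, a natriuretic peptide precursor, differed by 3.00, 2.71 and 2.62. IAPP had 1.80 ± 0.663 CPM in H9 and 0.214 ± 0.0146 in H1. Its H1 mean was under the filter cut, and it passed through its H9 libraries. TRH had 28.2 ± 3.01 CPM in H9 and 4.31 ± 1.30 in H1. TAC3, the neurokinin B precursor, was lower in H9 by 2.11 on the log2 scale.

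Processing enzymes were higher in 6 and lower in 3 of 10, with a median of 0.73. PCSK1, a prohormone convertase, differed by 1.43 and its inhibitor PCSK1N by 1.57, or by 0.94 without H9 vehicle culture 3, while PCSK2, the partner convertase, was lower in H9 by 0.97. Granins and release factors were higher in 8 of 12 and lower in 0, with a median of 0.85, and 1 was lower without H9 vehicle culture 3. VGF, a granin-like precursor, reached 1701 ± 731 CPM in H9 and 307 ± 5.86 in H1, a log2 difference of 2.47. CHGB, secretogranin I, differed by 1.96. Without H9 vehicle culture 3 the differences of VGF and CHGB were 2.08 and 1.50. Peptide degrading enzymes were higher in 3 and lower in 1 of 9, with a median of 0.20, and without H9 vehicle culture 3 they were higher in 3 and lower in 2, with a median of -0.09. DPP4 was higher by 1.21, and MME, neprilysin, was lower by 1.19 on the log2 scale. Summed neuron markers were also higher in H9 than in H1, as were summed astrocyte markers, at 1525 to 2516 CPM against 862 to 1058. The single markers were mixed. In vehicle cultures 5 of 10 neuron markers were called higher in H9 and 1 lower (7 and 1 without H9 vehicle culture 3). Of 8 astrocyte markers, 4 were called higher and 0 lower, and only those 4 had a positive difference. Without that culture 5 were called higher and 6 had a positive difference. Excitatory neuron markers were lower, at 53.4 to 78.6 CPM in H9 and 107 to 174 in H1. Summed GABA neuron markers overlapped with vehicle, at 399 to 646 CPM in H9 and 518 to 643 in H1. Of 10 tested GABA neuron markers, 2 were called higher in H9 vehicle and 5 lower (2 and 6 without H9 vehicle culture 3). Of 7 tested progenitor and dividing cell markers, 4 were lower in H9 vehicle and 1 higher, with a median of -2.58. The part of these cells in the lists' values was not tested.

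**Figure D4:**
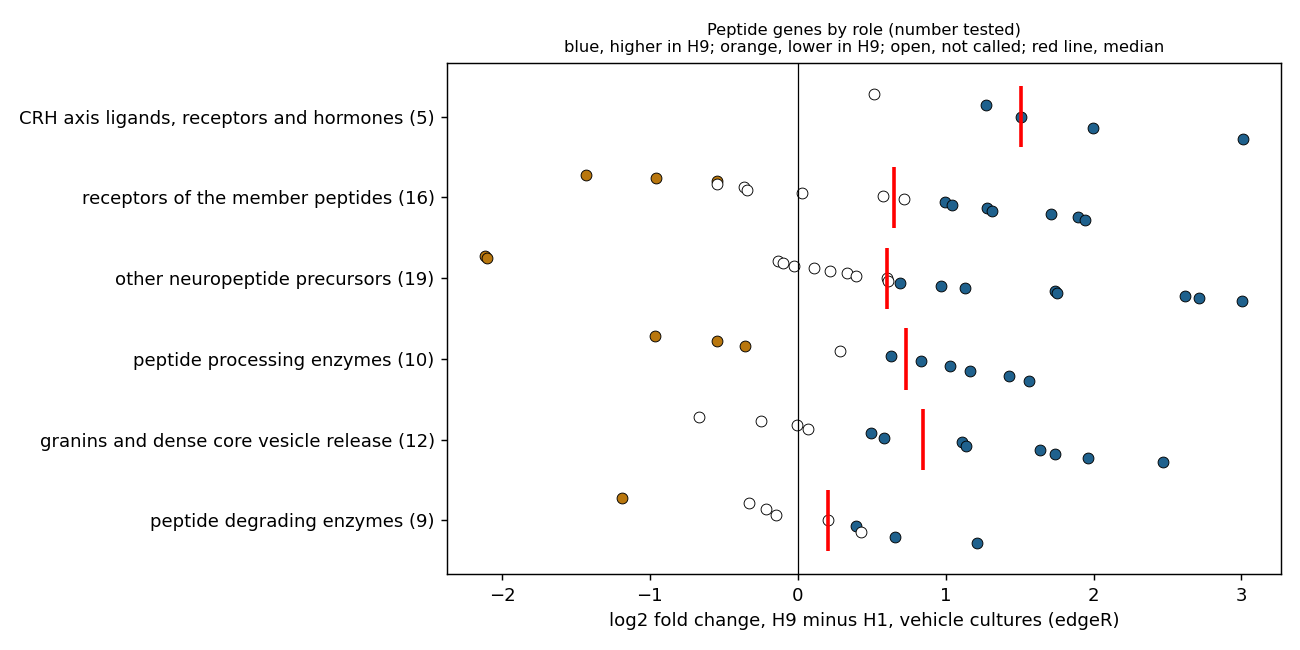
Log2 fold change of H9 minus H1 in vehicle cultures (edgeR) for tested genes of each list; each point is 1 gene, blue called higher in H9, orange called lower, open not called, and the red line is the median. The granin list has 8 genes called higher and 0 called lower, and the receptor list has 7 and 3 (7 and 5 without H9 vehicle culture 3).

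The 4 genes whose log2 CPM followed CRH most closely over the 12 libraries were POLR1C, MTUS1, FSTL1 and CDH11, with Pearson correlations of 0.962, 0.939, 0.934 and 0.930. Within the 6 libraries of a line, POLR1C reached 0.949 in H9 and 0.959 in H1. MTUS1, FSTL1 and CDH11 had 0.904, 0.933 and 0.821 in H9 and 0.823, 0.806 and 0.869 in H1. For SST, the closest were LINC02223, LUC7L3, PNISR and SCN3A, at 0.861, 0.859, 0.857 and 0.834. These libraries share line, depth and treatment, and the closest of many genes are high by selection. Between CRH and CRHBP the correlation was -0.67 over 12 libraries, 0.71 within H9 and 0.77 within H1. In H9 both genes were lowest in vehicle culture 3, and the correlation without that culture was not computed. Among the other H9 libraries the highest CRH levels, 5.31 and 5.10 CPM, went with the lowest of CRHBP, 11.8 and 11.2 CPM.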

How the data were processed

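Polyadenylated RNA was sequenced in 12 cultures, and the deposited files hold 1 raw read count per gene and library. The submitters' processing notes name STAR 2.5.3a and HTSeq, with GRCh38.p10 (hg38) as build. The strand setting is not given in the sources used here, nor is the annotation release. Genes were matched to GENCODE 29 by ID, and all 10 members matched.

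Counts were filtered by filterByExpr, scaled by TMM and tested with edgeR 4.0.16 (quasi-likelihood F-test, 1 mean per group, 8 residual degrees of freedom, Benjamini-Hochberg adjustment over all tested genes, threshold 0.05) in R 4.3.3. A standard error is the fold change over the root of its F statistic. Alternatives used RLE factors, DESeq2 1.42.0, limma-voom (limma 3.58.1), other filters, culture number as a term, single lines, 0.5 CPM added, and each library left out. The members and gene lists were chosen with earlier results of these data known. List genes named had a mean CPM of at least 1 and were the 3 largest called each way, and genes like a member had the highest correlation; OTP, SIM1, SOX2 and CRHR1 were named after their values were seen. Sister pairs differed by more than sampling noise.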

Additional observations from a re-analysis of the deposited data

How the results depend on the processing

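The counts of members called stayed within 1.5 times in every alternative run, and no called fold change of a member reversed. These counts and the fold changes below include NPY and PENK where tested, which had to differ between the lines to be tested. For dexamethasone against vehicle the counts were 0 throughout. Of the alternative values of members' fold changes, 1055 kept their side of the threshold, 10 lost a call, 6 gained one and 7 moved by more than the spread. NTS in vehicle cultures was lost with limma-voom (0.96), with a replicate block (1.06, adjusted p = 0.0545), and in 5 of 12 fits that left out 1 library (0.69 to 1.50 over the 12). Adding 0.5 CPM shrank low genes, PENK to 1.55 and 1.45, NPY to -0.61 and -0.91, GAL to 0.97 and CRHBP to 2.33 and 2.66. CRH and SST in dexamethasone cultures became called as lower in H9 without H9 vehicle culture 3, and SST also without H9 dexamethasone culture 2 (-0.61) or H1 dexamethasone culture 3 (-0.59). Vehicle and dexamethasone cultures of the same number had correlations of -0.01, 0.11 and 0.01 in H9 and 0.18, 0.10 and 0.05 in H1. Different numbers gave -0.13 to 0.08 in H9 and -0.18 to 0.07 in H1. Each same-number value in H1 was the highest for its vehicle culture. All were weak, and they do not settle whether culture numbers pair the samples. The replicate block changed no other member call.

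Counts over all genes moved more. For dexamethasone over both lines 18 genes became 116 with DESeq2, 30 with no filter, 184 with a replicate block without H9 vehicle culture 3, and 10 to 140 when 1 library was left out. In H9, 12 became 166, 24, 62, 6 to 53, and 2 with H9 alone. In H1, 9 became 32 with DESeq2, 5 with a replicate block, 141 with that block without H9 vehicle culture 3, 3 to 59 when 1 library was left out, and 50 with H1 alone. Between the lines in dexamethasone cultures 7777 became 11697 without H9 vehicle culture 3 and 11908 with the block added. The cause was not tested. Depth limits NPY, PENK and CCK, whose values rest on few counts.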

Other observations

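PMCH, the precursor of melanin-concentrating hormone, was counted at 6.80 to 33.5 CPM over the 12 libraries. Other genes on the opposite strand, PARPBP and HELLPAR, overlap 91.8% of its exon bases, and the strand setting is not given, so its reads cannot be told apart from theirs.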
